A study of Saccharomyces cerevisiae and Saccharomyces cerevisiae x Saccharomyces paradoxus and Saccharomyces cerevisiae x Saccharomyces mikatae with 18 samples.

Results

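The homozygous diploid of Saccharomyces mikatae was compared with that of Saccharomyces cerevisiae, the baker's yeast, a close relative, by the transcript levels of the same 4730 genes. The comparison rests on 4 of the 18 libraries of the study: the 2 libraries titled S. mikatae, of strain IFO 1815, and the 2 libraries titled S. cerevisiae rep3 and rep4, of strain YHL068. These are the libraries whose reads were mapped together to the genomes of both species. The labels name no pair of species for the S. cerevisiae libraries, so that this assignment comes from the deposited values. Both strains are diploid and carry the label wild type, but S. cerevisiae YHL068, a cross of BY4741 and BY4716, is heterozygous for the deletions lys2Δ0, leu2Δ0, his3Δ1, met15Δ0 and ura3Δ0. Each species is represented by 1 strain, so that strain and species cannot be told apart. Cultures were kept at 25°C in the rich glucose medium YPD and taken in log phase, at an OD600 between 0.65 and 0.75, and per the study's methods the libraries of a species are biological replicates. The other homozygotes used beside them were S. paradoxus CBS 432 and S. bayanus CBS 7001, with 2 libraries each and 2 S. cerevisiae libraries each, and the diploid S. cerevisiae x S. mikatae hybrid YYM030, a cross of BY4716 and JRY9175, had 2 libraries.

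Budding yeast grown on plentiful glucose ferments it and holds back the genes of respiration, gluconeogenesis and stress. Its amino acid, phosphate, copper and thiamine genes are each set by a small number of regulators that answer to the supply of the nutrient, among them Gcn4 for amino acids and Pho4 for phosphate. The question asked of the S. mikatae and S. cerevisiae homozygotes is how much the transcript level of each gene has come to differ between species kept in the same medium.

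Each value is the authors' sum of transcript-end reads on a gene, weighted for GC content and rounded, called a score here, and each library was scaled to a common upper quartile before comparison. Totals were 6627538 and 5934405 in S. mikatae, against 6415093 and 5715652 in S. cerevisiae, and the 10 highest genes took 14.7% and 13.9% of the total in S. mikatae, against 11.4% and 11.0% in S. cerevisiae. Over genes, which are not independent replicates, the log2 scores of the 2 libraries of a species had a correlation of 0.906 in S. mikatae and 0.900 in S. cerevisiae, and libraries of different species had correlations between 0.690 and 0.695. The SD over genes of the log2 difference between replicates was 1.05 in S. mikatae and 0.994 in S. cerevisiae, and the SD of the log2 ratio between the species was 1.68. Log2 ratios in the text are S. mikatae minus S. cerevisiae, on log2 of the scaled score plus 1, which understates the difference of low genes.

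Of the 4600 genes with a mean scaled score of at least 10, 375 were higher in S. mikatae and 523 were lower at a Benjamini-Hochberg adjusted p under 0.05 by limma, which is 8.15% and 11.4% of the genes tested and 19.5% together. The smallest adjusted p was 0.0149, and 1809 genes had an unadjusted p under 0.05. The smallest absolute log2 ratio among the 898 called genes was 1.10, their median was 2.27, and 127 of them exceeded 16-fold. All 898 called genes had libraries that did not overlap between the species, as did 68.8% of all genes tested (30.7% higher and 38.1% lower). In cultures measured in bulk, fewer cells with a transcript and less transcript per cell cannot be told apart. Calls were made at every level of expression, from 16.3% in the lowest of 4 equal groups of genes by mean score to 23.9% in the highest. In the highest group 155 genes were higher and 120 lower, whereas in the lowest 61 were higher and 126 lower. The calls need both replicates of each species: with any 1 of the 4 libraries left out, limma made 0 calls, with 1342 to 1578 genes at an unadjusted p under 0.05. The balance of higher and lower calls moved with the scaling and came to 275 higher and 781 lower with library totals. Over all genes the median log2 ratio came to -0.13 with the upper quartile, -0.48 with library totals and 0.00 with median-of-ratios factors.

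**Figure D1:**
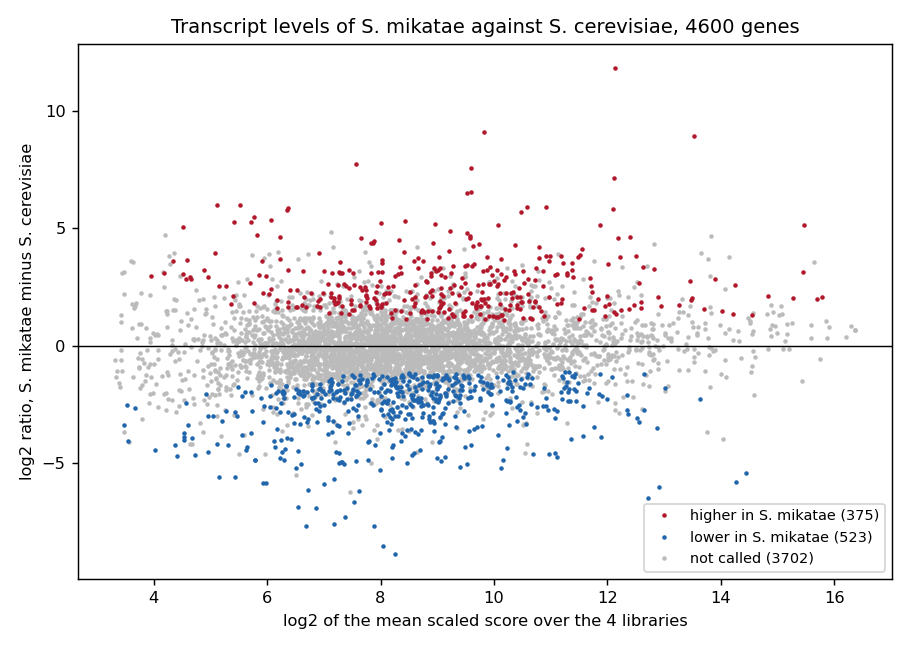
Log2 ratio of S. mikatae to S. cerevisiae (y axis) against log2 of the mean scaled score over the 4 libraries (x axis), 1 point a gene, for 4600 genes. Red points are the 375 genes higher in S. mikatae, blue points the 523 genes lower, and grey points were not called.

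The largest ratio belonged to RSC30 (YHR056C), which encodes a zinc-cluster subunit of the RSC chromatin remodelling complex. Its scaled score was 15563 and 2426 in S. mikatae, against 0 and 1.90 in S. cerevisiae, a log2 ratio of 11.82 ± 1.12 (SE, adjusted p = 0.0181). The 4 other S. cerevisiae homozygote libraries held between 0 and 3.75, so that the score was near 0 in all 6. Only uniquely mapping reads were kept, and whether this lowered the RSC30 score in S. cerevisiae was not tested. The next gene downstream of RSC30 on the same strand in S. cerevisiae, the metallothionein gene CUP1-2, is not among the genes listed. RSC30 was also high in S. paradoxus, at 5448 and 10679, and in S. bayanus, at 3373 and 2690. YFL040W, which encodes a protein of the sugar transporter family with no established role, had 10628 and 36613 in S. mikatae, against 28.7 and 52.2 in S. cerevisiae (8.95 ± 0.73, adjusted p = 0.0176). Here S. mikatae stood apart from the other species too, since S. paradoxus had 88.0 and 259 and S. bayanus 57.0 and 60.7. The gene that converges on it from the opposite strand, the actin gene ACT1, had 3004 and 4734 in S. mikatae, against 4466 and 5633 in S. cerevisiae.

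ARG1 (YOL058W), argininosuccinate synthetase, had 1827 and 1774 in S. mikatae, against 2.61 and 1.90 in S. cerevisiae (9.12 ± 0.33, adjusted p = 0.0149). AGX1 (YFL030W), the alanine-glyoxylate aminotransferase that makes glycine, had 1557 and 1509 in S. mikatae, against 8.71 and 5.69 in S. cerevisiae (7.57 ± 0.34). Replicates of both genes lay close together and far from the other species. BPL1 (YDL141W), the ligase that attaches biotin to carboxylases, had 7178 and 10156 in S. mikatae, against 163 and 137 in S. cerevisiae (5.83 ± 0.30). BNA4 (YBL098W), a kynurenine monooxygenase of nicotinamide nucleotide synthesis, had 1460 and 4152 in S. mikatae, against 40.1 and 53.1 in S. cerevisiae (5.71 ± 0.60). CHA4 (YLR098C), the activator of serine and threonine breakdown, had 4899 and 1138 in S. mikatae, against 16.5 and 85.4 in S. cerevisiae (5.92 ± 1.12), with a wide spread between replicates in both species.

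The remaining genes among the largest higher ratios have diverse roles. CTR3 (YLR411W), a high-affinity copper transporter of the plasma membrane, had 1595 and 1486 in S. mikatae, against 13.1 and 18.0 in S. cerevisiae (6.56 ± 0.31). UBP14 (YBR058C), the protease that takes apart free ubiquitin chains, had 485 and 271 in S. mikatae, against 0 and 1.90 in S. cerevisiae (7.74 ± 0.73), and HRD1 (YOL013C), a ubiquitin ligase of the endoplasmic reticulum, had 694 and 316 against 10.4 and 12.3 (5.25 ± 0.51). Both encode enzymes of ubiquitin turnover. IMP4 (YNL075W), a component of the U3 particle that processes pre-rRNA, had 5208 and 12347 in S. mikatae, against 18.3 and 168 in S. cerevisiae (7.13 ± 1.21). HOR7 (YMR251W-A), induced by hyperosmotic shock, had 3892 and 3713 in S. mikatae, against 62.7 and 59.8 in S. cerevisiae (5.93 ± 0.24). MIP6, which encodes an RNA-binding protein, and YHI9 had log2 ratios of 6.50 and 5.33, and ARG56 is given with the arginine genes.

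Among the genes that were lower, several were all but absent from S. mikatae. DCI1 (YOR180C), a peroxisomal protein related to enoyl-CoA isomerases, was listed at 0 in both S. mikatae libraries, against 217 and 1012 in S. cerevisiae (-8.88 ± 0.88, adjusted p = 0.0189). ICS2 (YBR157C), of unknown function, was also listed at 0 in both, against 165 and 247 in S. cerevisiae (-7.66 ± 0.51). These ratios rest on the added constant of 1 and are no measure of the size of the difference. RME1 (YGR044C), the repressor of entry into meiosis, had 1.06 and 0 in S. mikatae, against 580 and 474 in S. cerevisiae (-8.51 ± 0.55, adjusted p = 0.0149). PRM5 (YIL117C), a membrane protein induced by pheromone and cell wall stress, had 1.06 and 1.17 in S. mikatae, against 347 and 310 in S. cerevisiae (-7.28 ± 0.40). QDR2 (YIL121W), a multidrug exporter, had 3.19 and 2.33 in S. mikatae, against 373 and 362 in S. cerevisiae (-6.62 ± 0.38). The S. cerevisiae replicates of the last pair of genes were close to each other, and every S. mikatae value was below 4.

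MGR1 (YCL044C), an adaptor of the mitochondrial i-AAA protease, had 0 and 1.17 in S. mikatae, against 347 and 232 in S. cerevisiae (-7.60 ± 0.61), while PDI1, the next gene upstream on the same strand, had 9318 and 13797 in S. mikatae, against 1538 and 785 in S. cerevisiae. GEP5 (YLR091W), which is needed for the mitochondrial genome, had 3.19 and 1.17 in S. mikatae, against 198 and 219 in S. cerevisiae (-6.12 ± 0.52). MPC3 (YGR243W), a subunit of the mitochondrial pyruvate carrier, had 7.44 and 1.17 in S. mikatae, against 253 and 252 in S. cerevisiae (-5.89 ± 0.78). MPC3 is the exception among the 30 largest ratios in that other S. cerevisiae libraries reached down to 6.54, within the range of S. mikatae. CDC27 (YBL084C), a subunit of the anaphase-promoting complex, had 3.19 and 3.50 in S. mikatae, against 476 and 99.6 in S. cerevisiae (-5.66 ± 0.88). CDC39 (YCR093W), the scaffold of the CCR4-NOT complex, had 219 and 248 in S. mikatae, against 18342 and 12158 in S. cerevisiae (-5.99 ± 0.31), and its other S. cerevisiae libraries went down to 434. VPS1 (YKR001C), a dynamin-like GTPase of vacuolar sorting, had 303 and 637 in S. mikatae, against 69096 and 8558 in S. cerevisiae (-5.79 ± 1.15). ASP1 (YDR321W), the cytosolic asparaginase, had 172 and 118 in S. mikatae, against 17174 and 9386 in S. cerevisiae (-6.47 ± 0.43), whereas its downstream neighbour on the same strand, the mitochondrial ribosomal protein gene MRPL35, was higher, at 1089 and 2498 in S. mikatae against 184 and 141 in S. cerevisiae. PHO3 and SPO21 are given with their groups, and YEL023C, of unknown function, had a log2 ratio of -6.18.

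**Figure D2:**
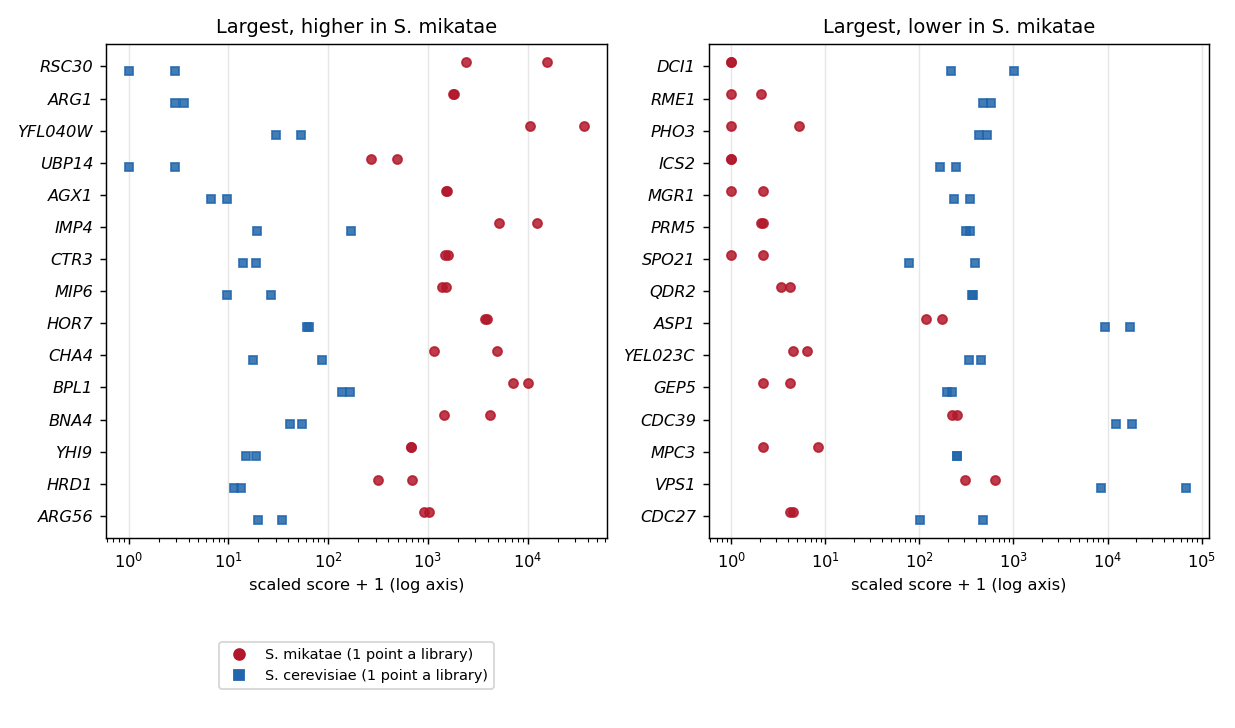
Scaled score plus 1 on a log axis (x axis) of the 15 genes with the largest log2 ratio in each direction (y axis), with 1 red circle for each S. mikatae library and 1 blue square for each S. cerevisiae library. The libraries of the 2 species do not overlap for any gene shown, and the replicates of RSC30, CHA4 and VPS1 lie far apart.

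Some genes were nearly absent from 1 species and well expressed in the other. Scores below 10 in both libraries of a species, beside at least 100 in both of the other, were held by 20 genes in S. mikatae and by 8 genes in S. cerevisiae, and all 28 were called. The 8 genes nearly absent from S. cerevisiae were UBP14, YDL109C, AGX1, HOP2, RSC30, OAR1, ARG1 and PRM3. In the hybrid the S. mikatae allele was the higher in both libraries for all 8 of them, and it was the lower in both libraries for 13 of the 20. Of all genes called, 315 of the 375 higher and 442 of the 523 lower matched the hybrid in this way. For MPC54, 1 of the 20, the S. mikatae allele was the higher in both.

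Phosphate genes had the lowest median of the 28 groups examined. When phosphate runs short the transcription factor Pho4 switches on acid phosphatases, high-affinity transport and the vacuolar complex that stores phosphate as polyphosphate. Of 28 members tested, 12 were lower in S. mikatae, 0 were higher and 16 were not called, where 11.4% of all genes were lower. Their median log2 ratio was -1.41, against -0.13 over all genes tested, and it lay between -1.75 and -1.21 over the 4 scalings tried. The transporter gene PHO84 had 1536 and 1201 in S. mikatae, against 9569 and 8424 in S. cerevisiae (-2.72 ± 0.27). PHO81, the inhibitor of the kinase that inactivates Pho4, had 74.4 and 120 in S. mikatae, against 993 and 766 in S. cerevisiae (-3.19 ± 0.37). The transporter and the sensor gene were both lower.

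The polyphosphate polymerase of the vacuole is built from VTC proteins, of which 4 were called. VTC3 had 181 and 138 in S. mikatae, against 3693 and 4794 in S. cerevisiae (-4.73 ± 0.30). VTC1 had 544 and 620 in S. mikatae, against 5386 and 7445 in S. cerevisiae (-3.44 ± 0.29), and VTC2 had 232 and 304 against 3308 and 2185 (-3.33 ± 0.34). VTC4, the catalytic subunit, had the smallest difference of the 4, with 542 and 615 in S. mikatae, against 1842 and 2101 in S. cerevisiae (-1.77 ± 0.24). VTC5 was not called, with 303 and 150 in S. mikatae against 415 and 362 in S. cerevisiae. PPN1 and DDP1, which cut polyphosphate, had log2 ratios of -1.63 and -3.57, and GDE1, which breaks down glycerophosphocholine, had -4.38. PHM6, a phosphate-regulated gene of unknown function, had 10.6 and 12.8 in S. mikatae, against 416 and 580 in S. cerevisiae (-5.28 ± 0.36). SYG1, related to phosphate exporters, had -2.10. The constitutive acid phosphatase gene PHO3 had 4.25 and 0 in S. mikatae, against 427 and 518 in S. cerevisiae (-7.68 ± 0.93, adjusted p = 0.0223), and it answers to thiamine rather than to phosphate. Of the low-affinity transporters, PHO87 had 286 and 258 in S. mikatae against 27.0 and 75.0 in S. cerevisiae and was not called, and PHO90 and PHO91 had -0.74 and -0.76 without a call.

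All 12 genes were below each of the 6 S. cerevisiae homozygote libraries, as were 485 of all 523 genes called lower. These 6 include the 2 libraries behind the calls. For 11 of the 12 the S. mikatae allele was the lower in both hybrid libraries, as it was for 442 of all 523 genes called lower. The exception was PHO84, whose alleles had 5798 and 4735 for S. mikatae, against 4410 and 6623 for S. cerevisiae. Over the 28 members tested the median hybrid log2 ratio, taken as the mean of the 2 libraries, was -0.50, against -0.04 over all genes. VTC3 alleles in the hybrid had 969 and 1212 for S. mikatae, against 2820 and 3506 for S. cerevisiae. Against the ratio of S. paradoxus to S. cerevisiae, 6 of the 12 differed, and against that of S. bayanus 4 did, with PHO3 and PHO81 in both counts.

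To show the Pho4 recognition letters CACGTG in place, 300 bases before the coding start in S. cerevisiae are given for 3 of these genes, read 5′ to 3′ on the coding strand from the RefSeq genome of S. cerevisiae (build R64), with each CACGTG in capitals. Both strands were searched, and the word reads the same on both. It was present before 5 of the 12 genes called and 10 of the 28 tested, against 3.47% of 4722 genes. No window of S. mikatae was read.
VTC1 (chrV:302506-302805, plus strand): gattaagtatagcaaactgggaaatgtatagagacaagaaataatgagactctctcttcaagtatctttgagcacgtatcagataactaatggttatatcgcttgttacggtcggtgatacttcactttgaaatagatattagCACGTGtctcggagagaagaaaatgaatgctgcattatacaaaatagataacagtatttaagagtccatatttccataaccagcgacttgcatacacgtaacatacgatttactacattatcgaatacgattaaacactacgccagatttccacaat
VTC4 (chrX:413400-413699, minus strand): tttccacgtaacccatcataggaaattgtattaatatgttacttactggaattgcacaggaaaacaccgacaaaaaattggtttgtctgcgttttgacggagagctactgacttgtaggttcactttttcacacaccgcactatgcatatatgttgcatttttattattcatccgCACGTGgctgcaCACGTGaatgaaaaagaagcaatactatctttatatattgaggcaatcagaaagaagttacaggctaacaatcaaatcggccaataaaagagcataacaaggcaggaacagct
PHM6 (chrIV:1022322-1022621, minus strand): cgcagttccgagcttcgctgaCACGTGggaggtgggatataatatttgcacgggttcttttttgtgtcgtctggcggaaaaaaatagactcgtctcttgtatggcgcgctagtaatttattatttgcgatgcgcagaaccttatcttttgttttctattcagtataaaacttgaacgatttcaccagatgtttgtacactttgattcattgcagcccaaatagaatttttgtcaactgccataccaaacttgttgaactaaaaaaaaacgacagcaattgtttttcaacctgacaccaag

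VTC4 held 2 copies and VTC1, PHM6, DDP1 and SYG1 1 copy each. PHO86, PHO87, PHO91, GTR1 and VIP1 held the word and were not called, and VTC3, PHO84 and PHO81 were called without it in this window.

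**Figure D3:**
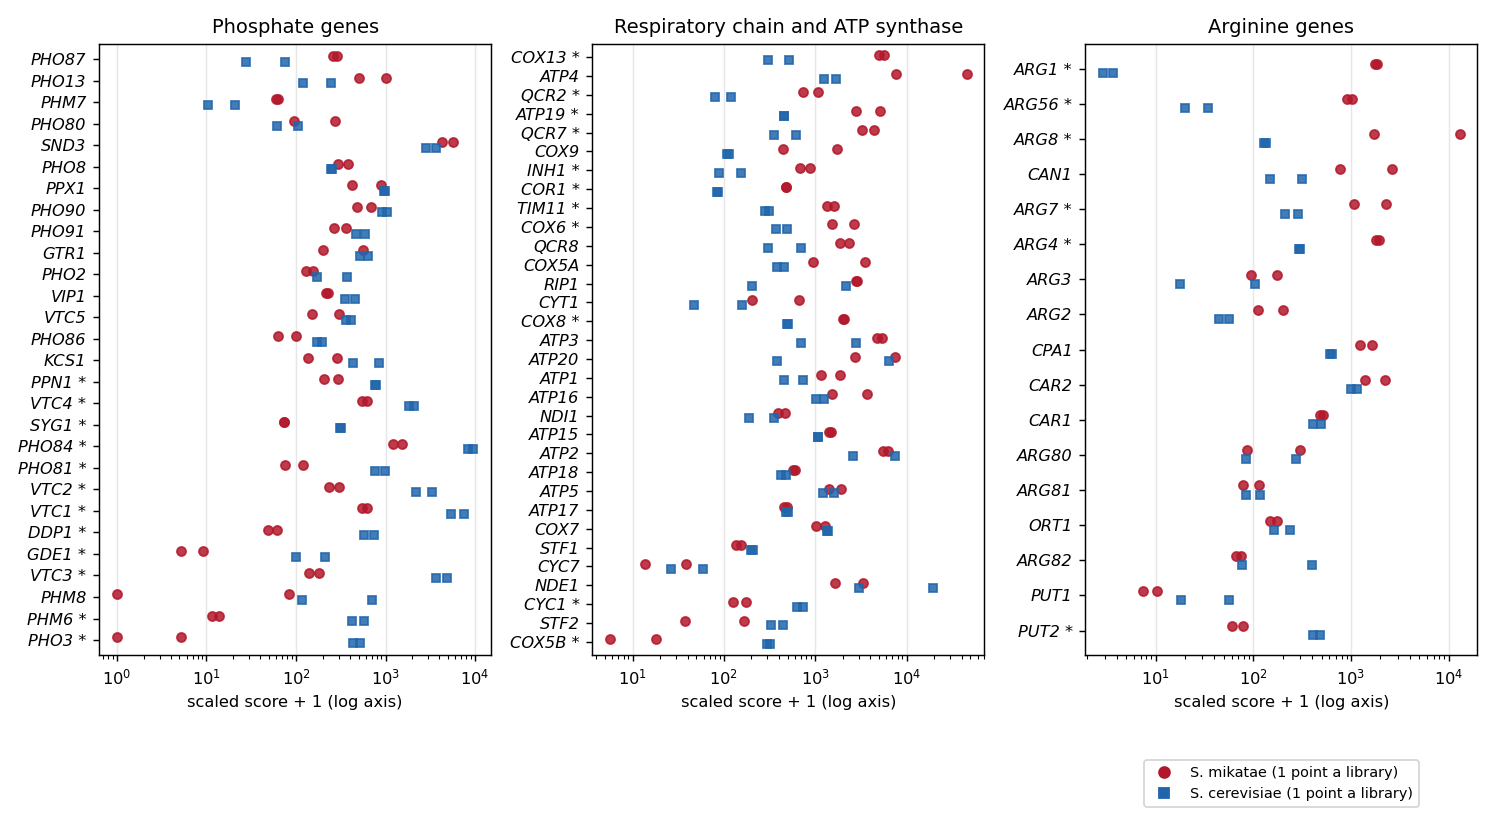
Scaled score plus 1 on a log axis (x axis) for the genes tested of 3 groups (y axis, ordered by log2 ratio), with red circles for S. mikatae libraries, blue squares for S. cerevisiae libraries, and an asterisk on genes that were called. Of the arginine genes 1, not called, is not drawn. Most phosphate genes sit lower in S. mikatae, and most respiratory genes sit higher.

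Arginine synthesis went the other way. The pathway builds ornithine from glutamate in the mitochondrion and turns it into arginine in the cytosol, and it is repressed by arginine and raised by Gcn4 when amino acids run short. Of 18 members tested, 5 were higher, 1 was lower and 12 were not called, where 8.15% of all genes were higher, with a median log2 ratio of 0.95, and the scalings gave 0.61 to 1.08. ARG56 (YER069W), whose product is cut into acetylglutamate kinase and reductase, had 1027 and 906 in S. mikatae, against 33.1 and 19.0 in S. cerevisiae (5.21 ± 0.39, adjusted p = 0.0157). ARG8, acetylornithine aminotransferase, had 1727 and 12957 in S. mikatae, against 135 and 127 in S. cerevisiae (5.16 ± 1.05, adjusted p = 0.0446), with the widest spread of the group between its S. mikatae replicates. ARG7, ornithine acetyltransferase, had 1064 and 2272 in S. mikatae, against 212 and 286 in S. cerevisiae (2.65 ± 0.47), and ARG4, argininosuccinate lyase, had 1917 and 1812 against 292 and 302 (2.65 ± 0.23). With ARG1, given above, steps on both sides of ornithine were higher. ARG3, the carbamoyltransferase between them, had 93.6 and 175 in S. mikatae, against 16.5 and 102 in S. cerevisiae, and was not called, nor was CPA1 (1.18). The breakdown gene CAR1, arginase, had 481 and 512 in S. mikatae, against 410 and 487 in S. cerevisiae, without a call, and PUT2 of proline breakdown was lower (-2.71 ± 0.30).

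In the hybrid the S. mikatae allele of all 5 genes called higher was the higher in both libraries. Of all 375 genes called higher the same held for 315. Over the 18 members tested, however, the median hybrid log2 ratio was -0.04, as it was over all genes. All 5 genes were above each of the 6 S. cerevisiae homozygote libraries, as were 333 of all 375 genes called higher. The libraries behind the calls are among these 6. The S. mikatae ratio differed from that of S. paradoxus for 4 of the 5, and from that of S. bayanus for ARG56, ARG8 and ARG7. ARG1 was low in all the other species: S. paradoxus had 24.3 and 2.98, and S. bayanus 79.2 and 16.8. Windows of 300 bases are shown for 3 of these genes to place the Gcn4 recognition letters TGACTC, which are in capitals on either strand (GAGTCA where they run on the opposite strand). They were found before 5 of the 5 genes called higher and 11 of the 18 tested, against 8.32% of 4722 genes in S. cerevisiae.
ARG1 (chrXV:218911-219210, plus strand): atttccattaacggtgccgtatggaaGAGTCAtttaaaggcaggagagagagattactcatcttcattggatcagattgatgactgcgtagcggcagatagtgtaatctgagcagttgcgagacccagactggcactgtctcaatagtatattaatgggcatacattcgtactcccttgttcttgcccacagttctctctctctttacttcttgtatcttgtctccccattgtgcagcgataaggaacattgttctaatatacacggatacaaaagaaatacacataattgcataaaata
ARG8 (chrXV:58459-58758, plus strand): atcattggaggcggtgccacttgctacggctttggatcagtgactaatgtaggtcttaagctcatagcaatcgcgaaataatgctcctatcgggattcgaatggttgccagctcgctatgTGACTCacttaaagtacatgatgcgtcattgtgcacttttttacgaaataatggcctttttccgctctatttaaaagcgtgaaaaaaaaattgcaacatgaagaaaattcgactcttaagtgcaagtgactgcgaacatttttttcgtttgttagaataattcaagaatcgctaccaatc
ARG56 (chrV:295110-295409, plus strand): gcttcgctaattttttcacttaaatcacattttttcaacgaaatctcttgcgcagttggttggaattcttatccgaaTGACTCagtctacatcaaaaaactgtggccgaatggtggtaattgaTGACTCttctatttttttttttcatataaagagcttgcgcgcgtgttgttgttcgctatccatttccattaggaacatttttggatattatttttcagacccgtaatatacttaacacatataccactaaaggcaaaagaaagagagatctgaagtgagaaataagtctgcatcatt

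ARG56 held 2 copies and each of the other 4 genes held 1. The windows are of S. cerevisiae, the species in which these genes were lower, and the letters are a description of those bases only.

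Genes of the respiratory chain and ATP synthase, which yeast needs to grow without fermentation, had a median log2 ratio of 1.70, with scalings between 1.36 and 1.83. Of 32 tested, 9 were higher and 2 lower, where 8.15% of all genes were higher and 11.4% lower. In the bc1 complex, QCR2 had 1067 and 742 in S. mikatae, against 118 and 78.8 in S. cerevisiae (3.19 ± 0.37), QCR7 had a log2 ratio of 3.03 and COR1 2.50. In cytochrome c oxidase, COX13 had 5025 and 5668 in S. mikatae, against 510 and 300 in S. cerevisiae (3.77 ± 0.36), and COX6 and COX8 had 2.25 and 2.04. ATP19 and TIM11, small subunits of ATP synthase, and INH1, its inhibitor, had 3.06, 2.31 and 2.73. The genes that were lower were COX5B and CYC1. COX5B, the hypoxic form of a cytochrome oxidase subunit, had 17 and 4.67 in S. mikatae, against 296 and 320 in S. cerevisiae (-4.93 ± 0.67), whereas the aerobic form COX5A had 945 and 3549 in S. mikatae against 384 and 455 in S. cerevisiae and was not called. CYC1, cytochrome c, had 174 and 126 in S. mikatae, against 742 and 629 in S. cerevisiae (-2.20 ± 0.31). ATP4 had a large difference without a call (3.68), since its S. mikatae libraries held 7619 and 45368. In the hybrid 6 of the 9 higher genes had the higher S. mikatae allele in both libraries and COX6 had the lower. Of all 375 genes called higher, 315 had the higher S. mikatae allele in both. Over the 32 genes the median hybrid log2 ratio was 0.11, against 1.70 in the homozygotes. The ratio of COX13, ATP19, INH1, COR1, TIM11 and COX8 differed from that of S. bayanus, and none of these 6 passed the test against S. paradoxus. CCAAT, the letters bound by the respiratory activator Hap2, Hap3, Hap4 and Hap5, was before 27 of the 32 genes and 42.4% of 4722.

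Ergosterol, the main sterol of yeast membranes, is made by a long chain of ERG enzymes. Of 29 genes tested, 10 were higher and 1 lower (median 0.55, with scalings between 0.21 and 0.68), beside 8.15% and 11.4% of all genes. MVD1 of the mevalonate branch had 5765 and 5754 in S. mikatae, against 1043 and 921 in S. cerevisiae (2.55 ± 0.23), and HMG1 and IDI1 of the same branch had 1.14 and 1.88. The later enzymes ERG2, ERG26, ERG6 and ERG24 had ratios of 2.03, 1.91, 1.52 and 1.23, and CYB5, which passes electrons in sterol synthesis, had 2379 and 1486 in S. mikatae, against 169 and 231 in S. cerevisiae (3.25 ± 0.37). The sterol esterifying enzyme gene ARE1 had 2.63. The one gene lower was ERG3, the C-5 desaturase, with 1411 and 1494 in S. mikatae, against 5867 and 6060 in S. cerevisiae (-2.04 ± 0.23). All 11 called genes lay outside the 6 S. cerevisiae libraries, which include those behind the calls, as did 91.1% of all called genes. For 10 of the 11 the hybrid alleles were on the same side in both libraries, HMG1 being the exception. The same held for 315 of all 375 genes called higher and 442 of all 523 called lower. Over the 29 genes the median hybrid log2 ratio was 0.32.

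Of 105 cytosolic ribosomal protein genes 13 were higher and 3 lower, a share called of 15.2% beside 19.5% of all genes, with a median of 0.41 that came to 0.00 with library totals, where the median of all genes was -0.48. RPS20 had 109050 and 67192 in S. mikatae, against 2367 and 2453 in S. cerevisiae (5.15 ± 0.35), and RPL39 had 9677 and 11042 against 408 and 420 (4.64 ± 0.23). RPL15B was lower, with 39.3 and 67.6 in S. mikatae, against 483 and 574 in S. cerevisiae (-3.33 ± 0.39), as was RPS4B (-1.82). RPS20 and RPL39 are single genes, but most of the others are members of pairs of nearly identical copies, so that reads kept for mapping to 1 place may have been split unevenly between copies, and their values are uncertain. Ribosome biogenesis factors had 11 higher and 4 lower of 101 (14.9% called, beside 19.5% of all genes), among them MAK11 at 2.93 and NOP53 at -2.58. Mitochondrial ribosomal proteins had 7 higher and 3 lower of 70 (14.3% called), among them MRPS12 at 3.76 and MRPL32 at -2.96. The medians of these lists, 0.31 and 0.34, came to -0.03 and -0.01 with library totals.

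**Figure D4:**
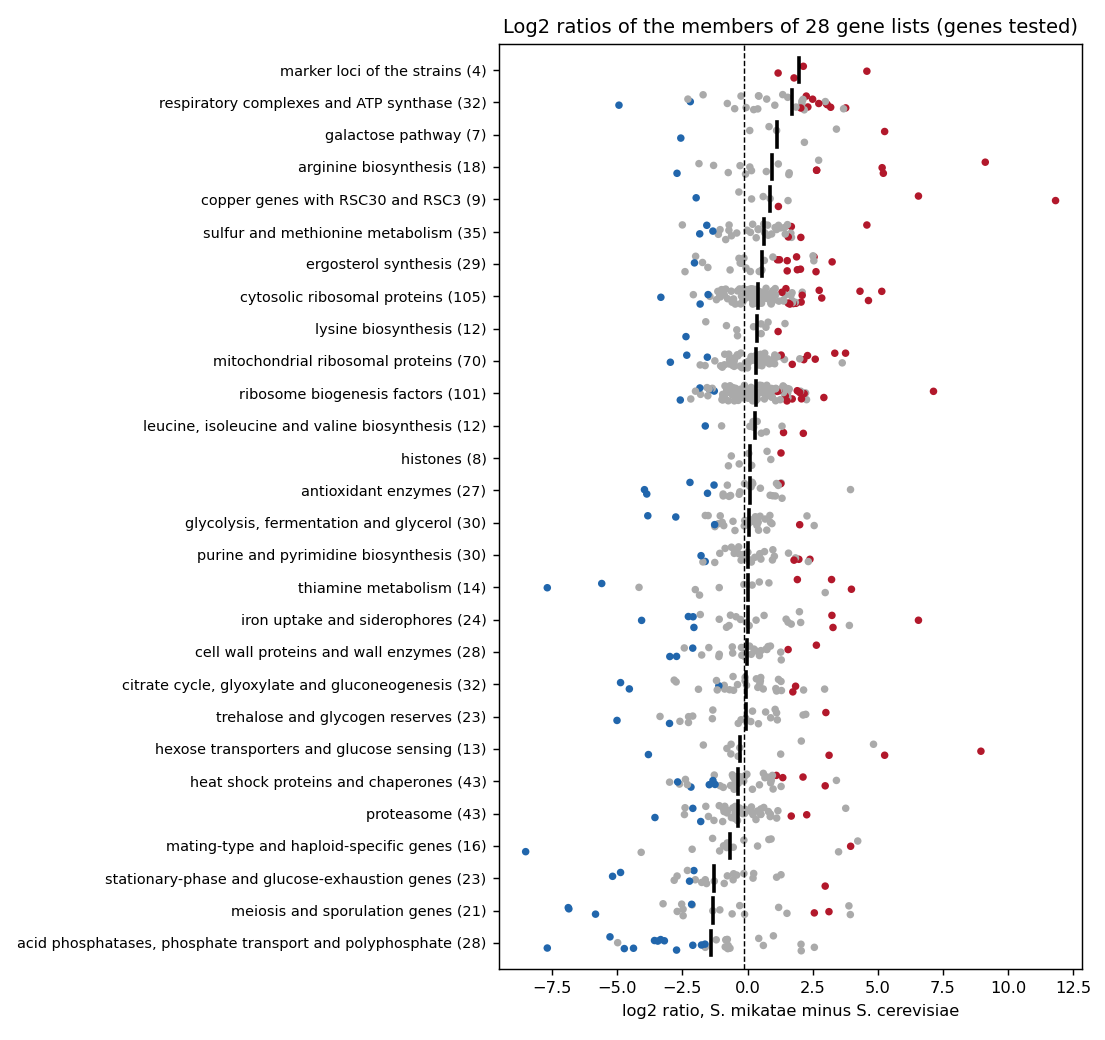
Log2 ratio of S. mikatae to S. cerevisiae (x axis) for each gene tested of 28 groups (y axis, number tested in parentheses, ordered by median), with red points for genes higher, blue for genes lower, grey for genes not called and black bars for medians. The dashed line is the median of all genes at -0.13, and the groups run between 1.96 for the marker genes and -1.41 for the phosphate genes.

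The strain markers were set beside the genotype of YHL068. S. cerevisiae YHL068 has a functional copy of LYS2, LEU2, MET17 (MET15) and URA3 on 1 of its 2 chromosomes, and all 4 were higher in S. mikatae. LYS2 had 421 and 397 in S. mikatae, against 180 and 181 in S. cerevisiae (1.17 ± 0.25, adjusted p = 0.0486). That call was lost with library totals (0.83), without a minimum value, without limma's trend and with the S. cerevisiae libraries of the S. bayanus pair. URA3 had 1487 and 1922 in S. mikatae, against 429 and 560 in S. cerevisiae (1.78 ± 0.29). LEU2 had 643 and 938 in S. mikatae, against 167 and 184 in S. cerevisiae (2.14 ± 0.31). MET17 had 3802 and 14276 in S. mikatae, against 429 and 220 in S. cerevisiae (4.58 ± 0.78). In the homozygotes gene dosage and species cannot be told apart for these 4, and HIS3 is not among the genes listed. In the hybrid, whose S. cerevisiae parent carries lys2Δ0, the LYS2 alleles had 290 and 288 for S. mikatae, against 2.51 and 0 for S. cerevisiae. The LEU2 alleles had 1042 and 658 for S. mikatae, against 434 and 466 for S. cerevisiae. For URA3 the values were 1679 and 1432, against 913 and 1036. Those of MET17 were 2934 and 896, against 1233 and 973, with the 2 libraries on different sides.

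A dividing diploid holds back the genes of mating and, while nutrients last, those of meiosis. Of 16 mating-type and haploid-specific genes tested, 1 was higher and 1, RME1, was lower, a share called of 12.5% beside 19.5% of all genes. The higher one was MFA2, an a-factor gene, with 236 and 215 in S. mikatae, against 8.71 and 20.9 in S. cerevisiae (3.96 ± 0.53). The receptor gene STE2 had 31.9 and 16.3 in S. mikatae, against 66.2 and 29.4 in S. cerevisiae, and GPA1, the G protein subunit, had 5.32 and 8.16 in S. mikatae, against 14.8 and 15.2 in S. cerevisiae, neither with a call. Of 21 meiosis and sporulation genes, 2 were higher and 4 lower, a share called of 28.6%. IME1, the inducer of meiosis, was listed at 0 in both S. mikatae libraries, against 335 and 38.9 in S. cerevisiae. SPO21, of the outer plaque of the meiotic spindle pole body, had 0 and 1.17 in S. mikatae, against 75.8 and 390 in S. cerevisiae (-6.88 ± 1.02), and MPC54 of the same structure had 1.06 and 1.17 against 133 and 107 (-5.83 ± 0.47). In the hybrid, however, the S. mikatae allele of MPC54 was the higher in both libraries. DMC1, the meiotic recombinase, was higher, with 69.1 and 64.1 in S. mikatae, against 10.4 and 10.4 in S. cerevisiae (2.56 ± 0.39), as was MEI4 (3.12), which S. cerevisiae held at 4.35 and 1.90.

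Genes that rise when glucose is used up served as markers of growth state. Of 23 tested, 1 was higher and 4 lower, a share called of 21.7% beside 19.5% of all genes. A negative ratio was held by 18 of them, and by 2474 of all 4600 genes tested. Their median was -1.28 and lay between -1.59 and -0.69 over the scalings, whereas their median hybrid log2 ratio was 0.76. YGP1, a secreted glycoprotein induced on nutrient limitation, had 4.25 and 3.50 in S. mikatae, against 212 and 144 in S. cerevisiae (-5.18 ± 0.44). ICL1, isocitrate lyase of the glyoxylate cycle, had 5.32 and 1.17 in S. mikatae, against 111 and 103 in S. cerevisiae (-4.87 ± 0.69). The markers differed among the S. cerevisiae libraries too. HSP12, a membrane stress protein and the 1 member called higher, had 27.6 and 29.2 in S. mikatae, against 2.61 and 2.85 in S. cerevisiae (2.98 ± 0.51), but the other S. cerevisiae homozygote libraries reached 174. The part of growth state in the phosphate, respiratory and sporulation results was not tested.

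HXT2, a glucose transporter, had 109107 and 53490 in S. mikatae, against 8824 and 8653 in S. cerevisiae (3.13 ± 0.44), GAL2, the galactose permease, had 93.6 and 73.5 against 0 and 3.80 (5.26 ± 0.93), and MTH1, a repressor of hexose transporter genes, had 2.13 and 11.7 against 91.4 and 82.6 (-3.80 ± 0.82, adjusted p = 0.0492). The call of MTH1 was lost with median-of-ratios factors, full-quantile normalization, a pseudocount of 0.5 and the S. cerevisiae libraries of the S. bayanus pair, and that of GAL2 with the last of these. The median of the 13 hexose genes tested was -0.30 with the upper quartile and 0.01 with full-quantile normalization. Of 7 galactose genes 1 was higher and 1 lower, a share called of 28.6% beside 19.5% of all genes. Their median was 1.11, with scalings between 0.77 and 1.31. FTR1, the iron permease, had 14307 and 12091 in S. mikatae, against 1213 and 1513 in S. cerevisiae (3.28 ± 0.27), while ARN1, a siderophore transporter, had 30.8 and 18.7 against 405 and 431 (-4.06 ± 0.38). Of 24 iron genes 3 were higher and 4 lower, beside 8.15% and 11.4% of all genes. In thiamine metabolism THI6 had 611 and 671 in S. mikatae, against 35.7 and 43.7 in S. cerevisiae (3.99 ± 0.29), and THI4, which makes the thiazole part, had 2.13 and 0 against 72.3 and 98.7 (-5.59 ± 0.77). With 3 higher and 2 lower of 14, a share called of 35.7% beside 19.5% of all genes, that list had no common direction.

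For central carbon and protein quality genes the shares called, between 11.6% and 22.2%, lay around the 19.5% of all genes. Of 30 glycolytic and fermentation genes 1 was higher and 3 lower: PGK1 had 6461 and 5286 in S. mikatae, against 1385 and 1539 in S. cerevisiae (2.00 ± 0.25), and the mitochondrial alcohol dehydrogenase gene ADH3 had 423 and 374 against 5166 and 6207 (-3.83 ± 0.25). CIT2, the peroxisomal citrate synthase, had a ratio of -4.54 among 2 higher and 3 lower of 32 genes of the citrate and glyoxylate cycles. Chaperone genes had 4 higher and 5 lower of 43, with HSP82 at -2.17, its cochaperone gene STI1 at -2.68 and the ribosome-bound SSB1 at 2.13. The call of SSB1 was lost with library totals and full-quantile normalization, and its S. cerevisiae libraries differed, with 11280 and 9487 here and 424 and 304 in those of the S. paradoxus pair. In that pair S. paradoxus had 336 and 312. Unique reads were kept there for a different pair of genomes, and whether this lowered the SSB1 score was not tested. Of 27 antioxidant genes 1 was higher and 5 lower, with the flavohemoglobin gene YHB1 at 460 and 508 in S. mikatae, against 6203 and 8068 in S. cerevisiae (-3.87 ± 0.27). Proteasome genes had 2 higher and 3 lower of 43. Among 35 sulfur genes 4 were higher and 3 lower, with CBF1, a regulator of the pathway, at 2.04.

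Set beside the other species, some of these ratios differed in size. The libraries of each pair of species were mapped to the genomes of that pair, and unique reads were kept. Differences between pairs, also among their S. cerevisiae libraries, cannot be told apart from differences in the reads that could be kept. A ratio can differ in size while its direction is shared. ARG56, for example, was also higher in S. paradoxus, at 366 and 327 against 123 and 60.3 in the S. cerevisiae libraries of that pair. The S. mikatae ratio differed from the ratio of S. paradoxus to its own S. cerevisiae libraries for 692 of 4640 genes (14.9%) and from that of S. bayanus for 988 (21.3%), by limma's interaction test over all 12 homozygote libraries at an adjusted p under 0.05. Over all 4640 genes, 258 differed from both species. Of the 898 genes called in S. mikatae, 289 differed from S. paradoxus, 347 from S. bayanus and 152 from both. Without S. cerevisiae rep3 or rep4 the first count came to 368 or 395, and without rep4 the second came to 622. For RSC30 neither difference passed the test (0.52 ± 1.25 and 0.26 ± 1.25). The called genes and the 30 largest ratios were chosen by the S. mikatae ratio that enters this test. Their shares are set in part by that choice. Among the 30 largest ratios, 11 differed from both other species, among them YFL040W, AGX1, BPL1, ARG56, PHO3, MGR1 and CDC27. PHO3 was high in both, with 565 and 525 in S. paradoxus and 9316 and 3068 in S. bayanus, and so was CDC27, with 929 and 1163 in S. paradoxus and 316 and 231 in S. bayanus. Of the called genes 818, or 91.1%, lay outside all 6 S. cerevisiae homozygote libraries, as did 47.0% of all genes tested. The 6 include rep3 and rep4, the libraries behind the calls. All 898 called genes were already free of overlap with these, against 68.8% of all genes tested. The gap between 91.1% and 47.0% is therefore set in part by the calling itself and is no independent check of the calls.

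In the hybrid both alleles share 1 cell, and each was scaled by its own upper quartile, with no test. Of the 375 genes higher in the S. mikatae homozygote, the S. mikatae allele was the higher in both hybrid libraries for 315 (84.0%), against 36.5% of all genes tested, and of the 523 genes lower, the S. mikatae allele was the lower in both for 442 (84.5%), against 39.6% of all genes. The opposite side in both libraries was held by 17 of the higher and 18 of the lower genes. Of the 30 largest ratios 27 were on the same side. RSC30 alleles had 22759 and 13701 for S. mikatae, against 0 and 0 for S. cerevisiae. ASP1 alleles had 266 and 133 for S. mikatae, against 53238 and 52077 for S. cerevisiae. The 3 exceptions were PRM5, with 31.0 and 26.2 for S. mikatae against 25.1 and 45.4 for S. cerevisiae, MPC3, and ICS2, whose S. cerevisiae allele had 2.51 and 0 in the hybrid. CWP1, a cell wall mannoprotein, had 1058 and 2577 in the S. mikatae homozygote, against 9997 and 11918 in S. cerevisiae, and was low for both alleles in the hybrid, with 6.65 and 30.5 for S. mikatae and 5.01 and 21.5 for S. cerevisiae. URA1, dihydroorotate dehydrogenase, was higher in the S. mikatae homozygote (1.97 ± 0.26), but its hybrid alleles had 18273 and 15032 for S. mikatae, against 84953 and 61048 for S. cerevisiae.

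**Figure D5:**
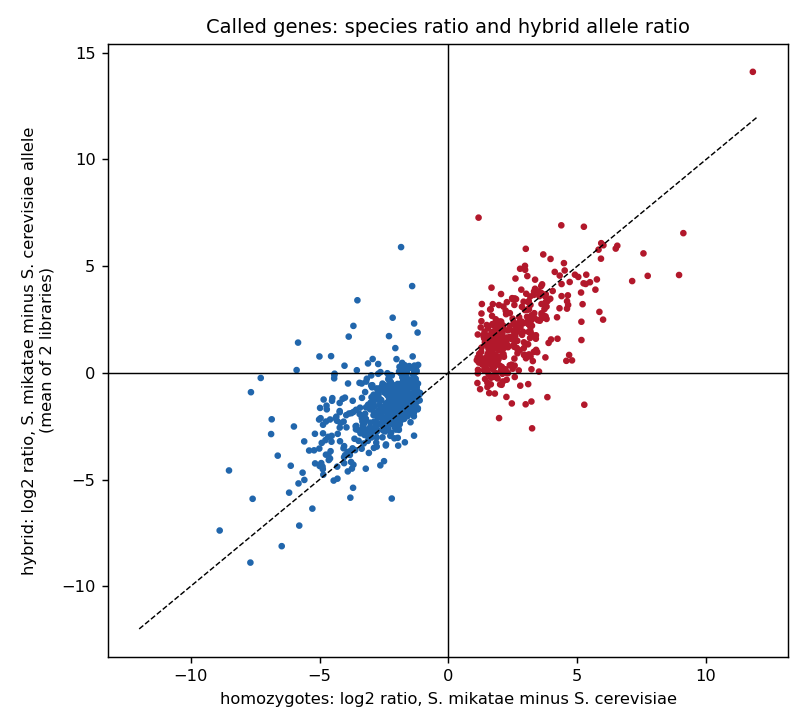
Mean log2 ratio of the S. mikatae to the S. cerevisiae allele in the 2 hybrid libraries (y axis) against the log2 ratio of the homozygotes (x axis) for the 898 called genes, red where the S. mikatae homozygote was higher and blue where it was lower. The dashed line marks equal ratios, and 315 of the red and 442 of the blue genes had both hybrid libraries on the side of the homozygotes.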

How the data were processed

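The members and gene lists were chosen with earlier results of these data known. Per the study's methods, the authors sequenced poly-adenylated transcript ends strand-specifically (CASAVA 1.7), mapped reads to both genomes of a pair with Bowtie 0.12.7, kept unique hits, removed internally primed reads and weighted reads for GC content. The deposited values are these weights summed per gene by the authors and rounded, with no scaling between libraries, and were taken as a score and not as counts, so no count model was run. Here each library was scaled to the upper quartile over its 4730 genes, set to 729.5, the mean of the 4 libraries; the other species and the hybrid alleles were put on the same scale. The 4600 genes averaging 10 or more were fitted by limma 3.58.1 under R 4.3.3, trend included, on log2(score + 1) of the 4 libraries, with Benjamini-Hochberg adjusted p under 0.05. Differences from the ratios of S. paradoxus and S. bayanus were interaction contrasts over all 12 homozygote libraries, which share 1 estimate of the spread. Since the scores are weighted, no counting intervals were computed; totals were 5715652 to 6627538. The main fit of the 4 libraries was run on simulated data, and the interaction fits were not.

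Genes named were the 15 with the largest absolute ratio in each direction among called genes averaging 100 or more without overlap between species, up to 2 called genes per direction and list, and the marker genes; PHO3, YFL040W and RSC30 were known from earlier results. Other members of the lists were named after their values were seen. Names and sequences are from the RefSeq annotation and genome R64 of S. cerevisiae, which named 4722 of the genes; the authors' own assemblies were not used here. Alternatives covered the scaling, the minimum, the pseudocount, the trend, a minimum ratio, the libraries in the fit, the reference libraries and leaving out each library; the S. cerevisiae libraries of the other pairs were added as a reference after the data were seen. Of the arginine list, 1 member counts in its totals but is not reported here by name. Figures were drawn with matplotlib 3.10.9.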

Additional observations from a re-analysis of the deposited data

Results flagged for a closer look

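For 20 of the 30 largest ratios the S. mikatae ratio differed from that of S. paradoxus or of S. bayanus by limma's interaction test over all 12 homozygote libraries. Of all genes tested, 14.9% differed from S. paradoxus and 21.3% from S. bayanus. The 30 genes were chosen by the S. mikatae ratio that enters this test, so that their share is set in part by that choice. The values are differences of log2 ratios, S. mikatae minus the other species, so that a positive value means a larger ratio in S. mikatae, and the adjusted p is in parentheses.

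The ratios of the enzyme genes AGX1, BPL1 and ARG56 were larger than those of both species. AGX1 differed by 9.10 (0.00174) from S. paradoxus and 6.13 (0.00327) from S. bayanus, BPL1 by 6.37 (0.00249) and 4.75 (0.00471), and ARG56 by 3.22 (0.0233) and 2.67 (0.0333). YFL040W differed by 7.22 (0.00284) and 8.97 (0.000882), MIP6 by 4.16 (0.0439) and 7.92 (0.00275), and HOR7 by 2.71 (0.0087) and 4.07 (0.00122), in the same order of species. The level of HOR7 in S. paradoxus, 4837 and 2454, was like the 3892 and 3713 of S. mikatae, and the S. cerevisiae libraries they were set against had 390 and 349 for S. paradoxus and 62.7 and 59.8 for S. mikatae.

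Lower against both were PHO3, by -8.33 (0.0025) and -10.85 (0.000673), MGR1, by -7.73 (0.000544) and -7.36 (0.000504), PRM5, by -4.32 (0.00195) and -6.68 (0.000283), ASP1, by -3.96 (0.0286) and -3.31 (0.0401), and CDC27, by -6.89 (0.00252) and -4.92 (0.0062).

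Against S. paradoxus the test was passed further by ARG1 at 7.24 (0.0137), CHA4 at 4.91 (0.0316), YHI9 at 6.33 (0.000544), HRD1 at 7.92 (0.00429) and MPC3 at -7.78 (0.0268). Against S. bayanus it was passed further by CTR3 at 5.53 (0.00356), BNA4 at 5.51 (0.0132), QDR2 at -3.78 (0.0021) and GEP5 at -4.92 (0.00303). Each group had 2 libraries, so that no library could be tested as an outlier of its group.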

How the results depend on the processing

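The 898 genes called became 1378 with all 12 homozygote libraries in the fit (807 shared), 1497 against all 6 S. cerevisiae libraries (776 shared) and, chosen after the data were seen, 1407 with the S. cerevisiae libraries of the S. paradoxus pair (673 shared) or 883 with those of the S. bayanus pair (628 shared). With the S. paradoxus pair's libraries as the reference, HSP12 turned to -1.46 (main value 2.98), the histone gene HHT1 to -0.25 (1.28) and the cyclin gene PCL8 to -0.44 (3.01). Of genes named by rule and given in the report, the calls of UBP14, HRD1, IMP4, DCI1, ICS2, IME1, COX13, ILV6, THI4, GAL2, CCS1, URA1 and MRPL35 were lost with the libraries of the S. bayanus pair. Lost with these too were those of HSP12, HHT1, PCL8, LYS2 and MTH1. The calls of MPC3 and NOP53 were lost with the libraries of the S. paradoxus pair and those of CDC39, CWP1, FCY1 and LYS14 with either. ILV6 was also lost with library totals and full-quantile normalization and IME1 with a pseudocount of 8. For list members named after their values were seen, such as ARG8 and HXT2, the calls under these settings are not given here. Leaving out 1 library gave 0 to 0 calls. Of the 898 genes 890 kept their sign in all 4 of those fits and 858 had an unadjusted p under 0.05 in all 4. The counts that differ from S. paradoxus and S. bayanus ranged from 368 to 517 and from 622 to 815 without 1 library. With library totals 275 genes were higher and 781 lower, with median-of-ratios factors 413 and 423, and with full-quantile normalization 423 and 441. Other minimums, pseudocounts, no trend and a minimum log2 ratio of 1 gave 848 to 942 calls. The cause of these changes was not tested. No paired analysis was possible because the compared libraries share no replicate numbers in their titles. Each species had 2 cultures of 1 strain, and scores were weighted, so that counting error was not estimated; genes below a mean of 10 were not tested.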

Other observations

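Biosynthetic groups not described above held a few calls each. Of 30 purine and pyrimidine genes 3 were higher and 2 lower in S. mikatae, a share called of 16.7% beside 19.5% of all genes. PRS4, which makes phosphoribosyl pyrophosphate, had 686 and 924 in S. mikatae, against 164 and 139 in S. cerevisiae (log2 ratio 2.39), and FCY1, cytosine deaminase, had 958 and 1215 in S. mikatae, against 3262 and 4240 in S. cerevisiae (-1.78). Of 12 lysine genes the pathway activator LYS14 was lower, with 168 and 166 in S. mikatae, against 840 and 884 in S. cerevisiae (-2.36). The regulatory subunit gene ILV6 of branched-chain amino acid synthesis had 25473 and 29770 in S. mikatae, against 10988 and 10186 in S. cerevisiae (1.38).

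Cell wall and reserve genes also differed singly. Of 28 cell wall genes 2 were higher and 3 lower, a share called of 17.9% beside 19.5% of all genes. The chitin transglycosylase gene UTR2 had 1595 and 1493 in S. mikatae, against 226 and 269 in S. cerevisiae (2.64). DSE2, a daughter cell wall gene, had 107 and 95.6 in S. mikatae, against 644 and 1013 in S. cerevisiae (-2.98). Of 23 trehalose and glycogen genes 1 was higher and 2 lower, among them GLC3, the glycogen branching enzyme, with 7.44 and 5.83 in S. mikatae, against 54.9 and 64.5 in S. cerevisiae (-2.99). In copper handling CCS1, the chaperone of superoxide dismutase, had 953 and 1099 in S. mikatae, against 3660 and 4408 in S. cerevisiae (-1.97), while CTR3 was higher.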
